A study of Mus musculus with 96 samples.

Results

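Endothelial identity genes are the genes whose activity marks the cells that line blood vessels: junction proteins, growth factor receptors, capillary transport proteins and the transcription factors that hold the endothelial state. The set described here is a list of 37 named genes, chosen by name and not by a threshold on any measured value, of the 55376 genes in the count table. All 37 were found in the table under their symbols, and all 37 passed the filter on low counts, along with 15629 genes in total. The study sequenced poly-A RNA from mouse ventricle in 96 libraries, all carrying the genotype label iCSBmal1 KO, an inducible deletion of the clock gene Bmal1 (Arntl) in cardiomyocytes. Animals labelled Tamoxifen, the agent that switches on an inducible Cre recombinase, were set against animals labelled Vehicle, in females and in males. The 4 groups (vehicle female, vehicle male, tamoxifen female and tamoxifen male) each held 24 libraries, with 2 libraries at each of 12 circadian times from ct 18 to ct 62 h, spaced by 4 h. Every group carries the floxed genotype, so no group here separates the agent tamoxifen from the deletion, and endothelial cells are not the cell type that the deletion is aimed at. The labels used here give no age, no promoter for the Cre and no extraction batch, and they do not say that libraries came from separate animals. The p-values therefore measure the spread between these libraries, which may be partly technical.

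As background, the heart muscle is supplied by a dense capillary bed, and endothelial cells are among the most numerous non-muscle cells of the ventricle. VEGF acts on them through Kdr (VEGFR2), with Flt1 (VEGFR1) acting largely as a decoy receptor, while the Tie receptors and Notch signalling steady vessels and set arterial fate. ETS and SoxF transcription factors keep endothelial genes active, and cardiac capillaries pass fatty acids to the muscle through Gpihbp1, Fabp4 and related proteins. The molecular clock of Bmal1 and its partners runs in endothelial cells as well as in cardiomyocytes.

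Totals ran from 8944955 to 20596194 counts per library, and levels are given as CPM, counts relative to library size after scaling by edgeR's trimmed mean of M-values. Arntl itself spanned 0.992 to 56.3 CPM over the vehicle female libraries and 2.85 to 28.3 CPM over the tamoxifen female ones. In males it spanned 1.27 to 48.3 CPM with vehicle and 1.31 to 31.7 CPM with tamoxifen. Its group medians lay between 13.2 and 16.2 CPM, and whole-gene counts from mixed tissue check the labels only in part. In 1 library labelled tamoxifen female, at ct 54 h, Xist stood at 0.272 CPM and the Y-linked Ddx3y at 11.3 CPM, against its label. That library and 12 others held more than 20 CPM of Myl7, an atrial myosin light chain. These libraries are unevenly spread, with most among vehicle females and the fewest among tamoxifen females. In vehicle males they lie only at ct 18 and ct 22 h. High Myl7 therefore goes partly with treatment in females and with time in vehicle males, and these cannot be fully told apart. No pair of libraries of a group and time had matching counts, with chi-square values of 3.86 to 99.6 per gene over the 48 pairs.

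The endothelial genes were well measured in every library. Cdh5 (VE-cadherin, the adherens junction protein of endothelium) was never below 140.0 CPM and Pecam1 (CD31, an adhesion protein) never below 150.6 CPM, so the defining markers of the cell type were present throughout. Per kilobase of exon, 3 of the 6 capillary transport genes stood highest: the water channel Aqp1 at a median of 181.8 CPM per kb over all libraries, the fatty acid binding protein Fabp4 at 118.9 and caveolin Cav1 at 104.1. Of the other transport genes, Gpihbp1 stood at 25.7 and Plvap at 4.95 CPM per kb. Ly6c1, a surface protein of capillary endothelium, followed at 88.9 CPM per kb and Cavin2, a caveola coat protein, at 84.7. Cdh5 stood at 50.9, the TGF-beta co-receptor endoglin (Eng) at 45.7 and Pecam1 at 33.8 CPM per kb. Among the receptor tyrosine kinases the order was Kdr at 29.4, Tie1 at 26.7, Tek (Tie2) at 20.2 and Flt1 at 15.1 CPM per kb. The transcription factors ran from Sox18 at 23.4 down to Sox17, the lowest of the 37, at 3.74 CPM per kb. Some members are not exclusive to endothelium: Fabp4 is also made by adipocytes, Aqp1 by red cells and Vwf by platelets. Ly6c1 has the near-identical copy Ly6c2. The exons of 8 members overlap another gene (Egfl7, Eng, Sox17, Rasip1, Ecscr, Dll4, Nos3 and Ramp2), and the strand used in counting is not given in the sources used here, so their counts are less certain.

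Before any comparison, 1 feature of the vehicle males has to be given. In 10 of the 24 vehicle male libraries, genes of the annotation class TEC, loci whose transcripts still await experimental proof, took 0.123% to 0.190% of counts, against at most 0.112% in any library of the other 3 groups. The labels do not mark these 10 libraries, which lie at 8 of the 12 times. They were also the libraries with high endothelial genes: 28 to 37 of the 37 members stood above the vehicle male median in each of them, against 1 to 25 in the other 14. Summed over the 37 genes, the 10 libraries held a median of 6732 CPM (5490 to 8019) and the other 14 a median of 4428 CPM (3732 to 5603). The ratio of the medians was 1.54 at the median gene and above 1 for 36 of 37 genes, the exception being Tmem100 at 0.884. For Egfl7, a secreted matrix protein of vessels, the 10 libraries spanned 147 to 209 CPM with a median of 188, and the other 14 spanned 70.2 to 140 CPM with a median of 89.7. Those ranges do not overlap, and the same held for Tie1, Erg, Fli1 and Rasip1. These counts were made for the members alone. The share of all genes that split in the same way was not counted, so they do not show a trait particular to endothelial genes. Markers of other cell types moved as well: the summed cardiomyocyte markers (10 genes, none at 0) lay between 38210 and 53300 CPM in the 10 libraries and between 53780 and 64210 CPM in the other 14. Schwann cell markers summed to a median of 47.2 against 28.8 CPM and platelet markers to 36.1 against 20.4 CPM, while the lymphatic markers went the other way, at 110 against 176 CPM. Other vascular lists, named further below, did not all rise in the 10 libraries. The medians of their sums were 7367 against 8137 CPM for 12 capillary genes and 4302 against 4139 CPM for 20 receptors. They were 1042 against 867 CPM for 20 transcription factors and 1706 against 1359 CPM for 16 ligands. Mural markers summed to 1564 against 1782 CPM. In bulk tissue, more endothelial cells and more RNA per endothelial cell cannot be told apart, and a technical origin was not tested. The counts of genes called in comparisons that involve vehicle males are given below with and without these 10 libraries.

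**Figure D1:**
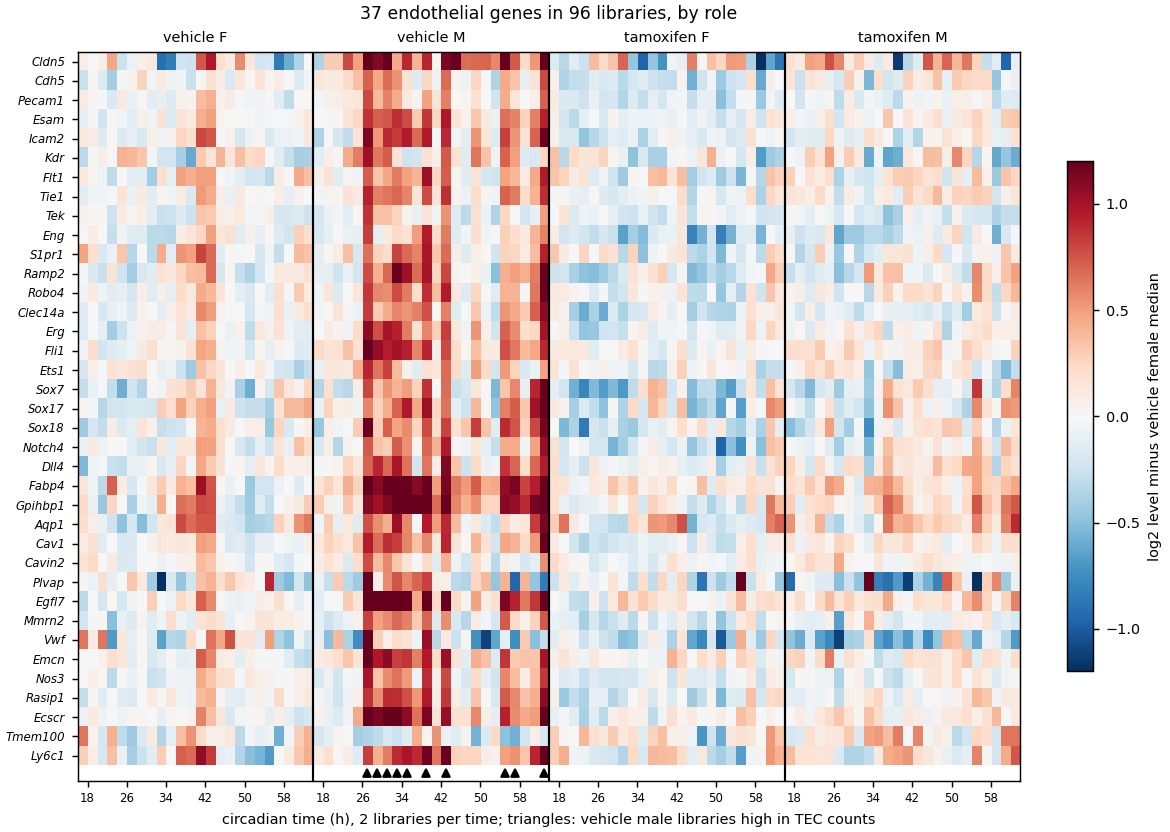
Level of each of the 37 endothelial identity genes (rows, grouped by role) in each of the 96 libraries (columns, by group and circadian time), as log2 level minus the vehicle female median of that gene. The high columns in the vehicle male block are the libraries with a high share of TEC counts, and the pair of vehicle female libraries at ct 42 h also stands out.

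In vehicle-treated mice, most endothelial identity genes were lower in females than in males. Of 37 members, 34 were called lower in females and 0 higher (edgeR's quasi-likelihood test on the mean level over 12 times, Benjamini-Hochberg adjusted p below 0.05). That stands against 68.3% of all genes called, 36.5% lower, so a call by itself is common here. The median difference over the members was -0.35 on the log2 scale, beside -0.03 over all genes tested. DESeq2 called 33 lower and 1 higher, and at an unadjusted p below 0.05 edgeR also had 1 higher.

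The largest differences among the called members were those of Cldn5, Gpihbp1, Fabp4 and Egfl7. Cldn5, the tight junction claudin of endothelium, spanned 10.7 to 40.0 CPM in vehicle females (median 20.3) and 15.7 to 68.1 CPM in vehicle males (median 33.2), a log2 difference of -0.85 ± 0.10 (SE, adjusted p = 5.25e-11). Its ranges overlap, and 22 of the 24 female libraries lay below the male median. Gpihbp1, which anchors lipoprotein lipase on capillaries, spanned 41.2 to 98.6 CPM (median 56.5) in vehicle females and 54.5 to 179.5 CPM (median 110.5) in vehicle males, a difference of -0.76 ± 0.08. Fabp4 spanned 340 to 951 CPM (median 464) in vehicle females and 512 to 1335 CPM (median 852) in vehicle males, a difference of -0.74 ± 0.07. For both transport genes the ranges overlap while the medians lie far apart. Egfl7 spanned 61.7 to 127 CPM (median 77.3) in vehicle females against 70.2 to 209 CPM (median 114) in vehicle males, a difference of -0.67 ± 0.08. The members not called were Vwf (von Willebrand factor, 0.06 ± 0.12), Tmem100 (a membrane protein induced by BMP signalling, 0.15 ± 0.07) and Plvap (the diaphragm protein of fenestrae, -0.26 ± 0.16).

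Without the 10 vehicle male libraries, the same comparison called 12 members lower in females and 1 higher, against 46.7% of all genes, and the median was -0.11. Gpihbp1 (-0.51), Cldn5 (-0.50) and Fabp4 (-0.49) remained lower in females, with Sox18, Egfl7, Ecscr, Fli1, Ly6c1, Emcn, Cav1, Esam and Erg. Vwf was then higher in females, by 0.37 on the log2 scale. The signs of Nos3, Cavin2, Notch4, Tek and S1pr1 turned, to values of 0.00 to 0.10.

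**Figure D2:**
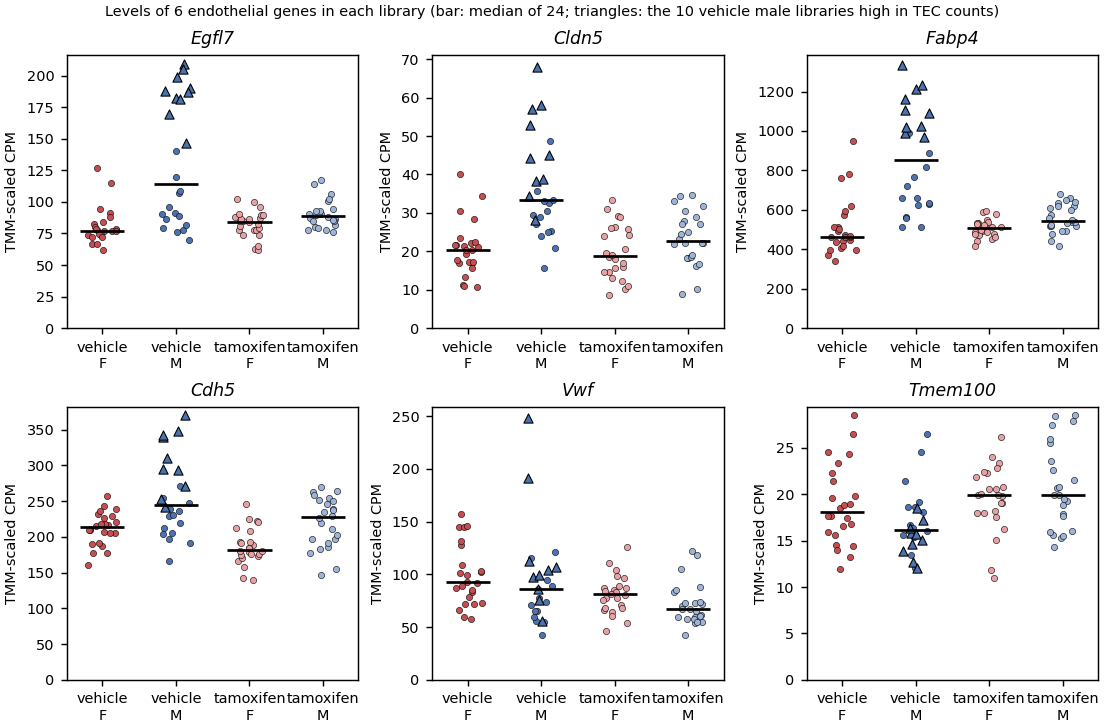
CPM of Egfl7, Cldn5, Fabp4, Cdh5, Vwf and Tmem100 in every library by group (points, 24 per group; bars mark group medians), with triangles for the 10 vehicle male libraries with raised TEC shares. The triangles fill the upper part of the vehicle male column for Egfl7, from 147 to 209 CPM, and not for Tmem100.

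Nearly the whole set was lower in tamoxifen males than in vehicle males. Of 37 members, 34 fell and 1 rose between vehicle and tamoxifen males (edgeR's quasi-likelihood test, Benjamini-Hochberg adjusted). Over all genes 70.0% were called, 37.8% lower and 32.2% higher, and the median change was -0.37 over the members against -0.05 over all genes tested. This comparison shares the vehicle male libraries with the sex difference above, so neither count is independent of the other. By role, all 5 junction and adhesion genes fell, as did all 4 receptor kinases, all 5 other receptors, all 6 transcription factors, both Notch pathway genes and all 4 secreted or matrix genes. Of the 6 capillary transport genes 4 fell, and Aqp1 (-0.14 ± 0.08) and Cavin2 (-0.08 ± 0.05) did not pass the test. Of the 5 remaining signalling genes 4 fell and Tmem100 rose.

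The largest fall was that of Cldn5, which spanned 8.87 to 34.8 CPM (median 22.6) in tamoxifen males against the 15.7 to 68.1 CPM of vehicle males, a fall of 0.67 ± 0.10 on the log2 scale (adjusted p = 3.36e-08), with 22 of 24 tamoxifen libraries below the vehicle median. Fabp4 spanned 414.3 to 678 CPM (median 546) in tamoxifen males and fell by 0.60 ± 0.07, in the same direction at 12 of 12 times. Gpihbp1 spanned 51.5 to 95.7 CPM (median 66.8) and fell by 0.58 ± 0.08. All 24 tamoxifen male libraries lay below the vehicle male median for both Fabp4 and Gpihbp1, although their ranges still overlap those of the vehicle males. Ecscr, an endothelial receptor that regulates chemotaxis, spanned 13.98 to 20.1 CPM (median 16.3) in tamoxifen males against 13.4 to 41.0 CPM (median 22.1) in vehicle males, and fell by 0.55 ± 0.08. Every tamoxifen library lay below the vehicle median for Ecscr, and none below the lowest vehicle library.

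Of the receptor kinases, Kdr fell by 0.30 ± 0.07, Tie1 by 0.28 ± 0.06, Flt1 by 0.25 ± 0.06 and Tek by 0.25 ± 0.06. Among the ETS factors, which bind endothelial enhancers, Fli1 fell by 0.42 ± 0.06, Erg by 0.41 ± 0.07 and Ets1 by 0.29 ± 0.06. Among the SoxF factors, Sox18 fell by 0.52 ± 0.09, Sox17 by 0.38 ± 0.08 and Sox7 by 0.27 ± 0.09. Nos3, the endothelial nitric oxide synthase, fell by 0.33 ± 0.06. Tmem100 spanned 12 to 26.6 CPM (median 16.2) in vehicle males and 14.3 to 28.6 CPM (median 19.9) in tamoxifen males, and rose by 0.30 ± 0.07 (adjusted p = 0.000255). For Tmem100, 4 tamoxifen libraries exceeded the highest vehicle library.

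Without the 10 vehicle male libraries the male count was 12 lower and 1 higher, against 42.2% of all genes, and the median change was -0.11. The 12 were all among the 34: Fabp4 (-0.36), Gpihbp1 (-0.34), Cldn5 (-0.33), Sox18 (-0.32), Clec14a (-0.28), Eng (-0.28), Icam2 (-0.23), Ly6c1 (-0.20), Ecscr (-0.18), Fli1 (-0.15), Esam (-0.13) and Cav1 (-0.12). The gene that rose was Cavin2, by 0.12, while Tmem100 did not pass the test. No receptor kinase and no secreted or matrix gene passed.

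In females few of these genes passed the test for a change with tamoxifen with all libraries in the fit. Of 37 members 5 fell and 0 rose, against 27.5% of all genes called, 12.3% lower (edgeR's quasi-likelihood test, Benjamini-Hochberg adjusted). At an unadjusted p below 0.05, 14 members were lower and 0 higher, and DESeq2 called 7 lower. Of the 37 estimates 31 were negative, with a median of -0.08 beside 0.01 over all genes tested.

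Eng was first, with 155.7 to 278.6 CPM (median 197.8) in vehicle females and 111.7 to 217.0 CPM (median 169.0) in tamoxifen females, a fall of 0.27 ± 0.07 (adjusted p = 0.000926) in the same direction at 12 of 12 times. For Eng, 8 of 24 tamoxifen libraries lay below the lowest vehicle library and 22 below the vehicle median. Notch4, a Notch receptor of arterial endothelium, spanned 34.5 to 59.2 CPM (median 42.02) with vehicle and 21.3 to 53.98 CPM (median 36.5) with tamoxifen, and fell by 0.23 ± 0.07 (adjusted p = 0.0139). Clec14a, a C-type lectin that binds Mmrn2 in the vessel matrix, spanned 27.4 to 47.5 CPM (median 31.6) with vehicle and 20.7 to 36.0 CPM (median 27.9) with tamoxifen, and fell by 0.21 ± 0.06. For Clec14a, 10 tamoxifen libraries lay below the lowest vehicle library. The junction genes Cdh5 and Pecam1 each fell by 0.18 (SE 0.07 and 0.05). Cdh5 spanned 161 to 257 CPM (median 213) with vehicle and 140.0 to 245 CPM (median 182) with tamoxifen, so the 2 ranges largely coincide.

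The genes whose tamoxifen effect differed most between the sexes had female estimates close to 0: Fabp4 at 0.00 ± 0.07, Ecscr at -0.01 ± 0.08, Egfl7 at 0.03 ± 0.08 and Cldn5 at -0.07 ± 0.11. Gpihbp1 and Sox18 also fell strongly in males, and their female minus male differences were smaller, at 0.495 and 0.377 on the log2 scale. With only the first 24 h of times none of the 5 female calls passed, and Cav1 alone did (-0.19), where 14.7% of all genes were called. Without the library whose sex genes go against its label 7 members were lower (27.5% of all genes called), and without all 13 libraries high in Myl7, 8 were (21.8%). When the 10 vehicle male libraries were left out of the joint fit, in which all groups share 1 estimate of the spread, 15 members were lower in females (34% of all genes called), with Eng at -0.28 and Vwf at -0.28 first. The standard error of Eng was 0.067 with all libraries and 0.057 in that fit.

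**Figure D3:**
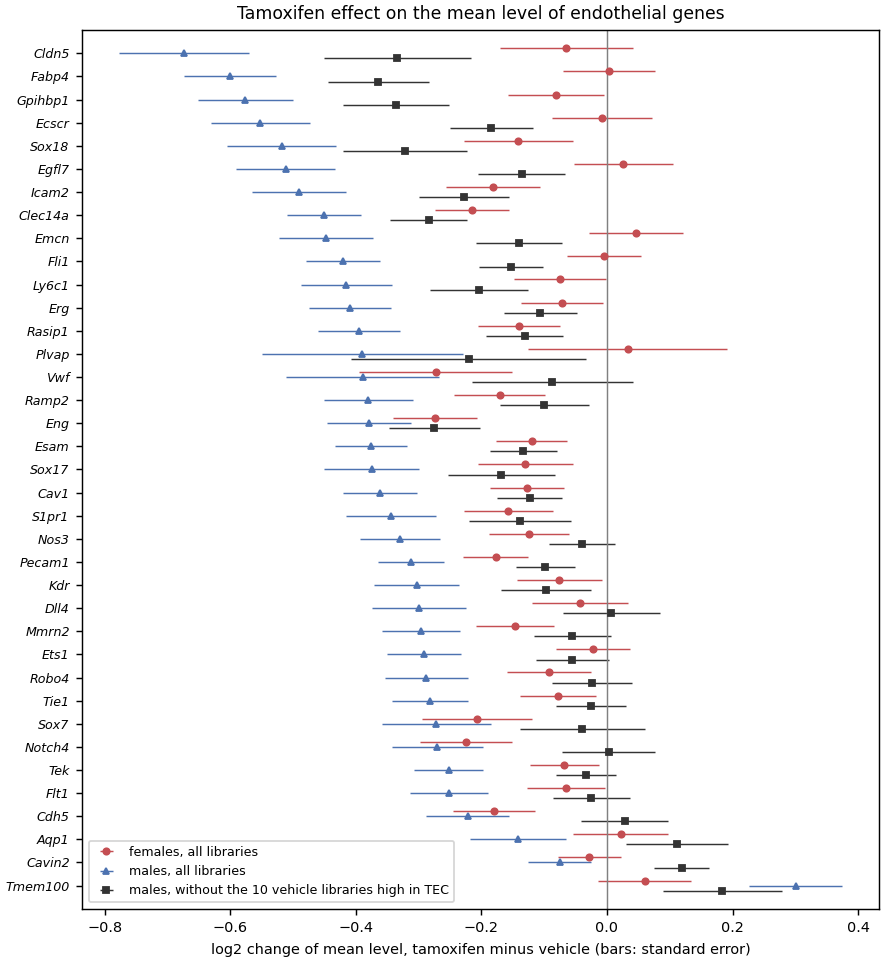
Log2 change with tamoxifen in mean level for each of the 37 genes (points, with bars of 1 SE) in females, in males, and in males without the 10 vehicle male libraries with raised TEC shares. Male estimates lie mostly between -0.25 and -0.67, female ones between -0.27 and 0.06, and the male estimates move toward 0 when the 10 libraries are left out.

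The tamoxifen effect differed between the sexes for 23 of the 37 genes by the interaction test of edgeR's quasi-likelihood fit. The female minus male difference was positive for 22, meaning a smaller fall in females, and negative for Tmem100 (-0.24 ± 0.10). Over all genes 52.3% were called, 27% positive, with a median of 0.03 beside 0.23 for the members. The largest differences were those of Cldn5 (0.61 ± 0.15), Fabp4 (0.60 ± 0.10), Ecscr (0.54 ± 0.11) and Egfl7 (0.54 ± 0.11). Without the 10 vehicle male libraries, 1 member was positive (Fabp4, 0.36) and 1 negative (Cavin2, -0.15), against 28.6% of all genes, and the median was -0.01.

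Among tamoxifen-treated mice, where no vehicle male library is compared directly, few members were called different between the sexes with all libraries in the fit. Of 37 members 4 were lower in females and 0 higher, against 7.68% of all genes, 3.60% lower and 4.08% higher. Gpihbp1 spanned 43.7 to 88.1 CPM (median 54.9) in tamoxifen females against 51.5 to 95.7 CPM in tamoxifen males, a difference of -0.27 ± 0.08 (adjusted p = 0.0155). Cdh5 had a median of 182 CPM in tamoxifen females and 228 CPM in tamoxifen males (146 to 270), a difference of -0.24 ± 0.07. Notch4 had medians of 36.5 and 42.7 CPM (-0.23 ± 0.07) and Cav1 medians of 309 and 369 CPM (-0.21 ± 0.06). The ranges of all 4 overlap between the sexes. With library size alone as the scaling, 0 members passed this comparison, against 7.22% of all genes.

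Exon length went with the change over all genes in the comparisons that use vehicle males, and the medians by length were computed with all libraries. In males the median change with tamoxifen was -0.21 over all tested genes under 2000 bases of exon and 0.02 over those with the longest exons. The members were lower than all tested genes in each length class: -0.49 for the 7 shortest, -0.37 for the 14 between and -0.31 for the 16 longest. In females the members' medians were -0.07, -0.10 and -0.11 in the same order.

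Other vascular genes, from lists of pathway members, were lower in tamoxifen males too. Of all genes tested, 37.8% were called lower in males and 32.2% higher. Of 12 further capillary genes 11 fell with tamoxifen, among them Btnl9 (-0.58), Tinagl1 (-0.47) and the capillary carbonic anhydrase Car4 (-0.46). Of 20 further vascular receptors 17 fell, and the fatty acid transporter Cd36 rose by 0.13. Of 20 further vascular transcription factors 15 fell, led by Lmo2 (-0.71), which bridges blood and endothelial transcription complexes, and Foxc1 (-0.66). Of 16 vascular ligands 13 fell, with the placental growth factor Pgf at -0.54 and Vegfc at -0.49, and Angpt1, the ligand of Tek, rose by 0.45. Without the 10 vehicle male libraries 42.2% of all genes were called. The lower counts were then 5 of the capillary genes, 1 of the receptors, 4 of the transcription factors and 7 of the ligands. None of these lists had a gene called higher.

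In females the same lists gave 2 of 12 capillary genes lower, 1 of 20 receptors lower (Ephb4, -0.11), 3 of 20 transcription factors lower and 2 higher, and 5 of 16 ligands lower. Those counts stand beside 12.3% of all genes called lower in females and 15.2% called higher. Apln, the apelin ligand made by sprouting endothelium, fell by 0.58, and Lmo2 fell by 0.59. The Notch targets moved both ways, with Hey2 falling by 0.36 while Heyl rose by 0.20 and Hes1 by 0.18. Of 6 genes of inflammatory adhesion 1 fell in females (Jam2, -0.51) and 3 fell in males, with Icam1, a leukocyte adhesion receptor, at -0.78. The male count was 2 without the 10 vehicle male libraries.

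Markers of other cell types also moved with tamoxifen. Calls were common over all genes: 70.0% in males, 42.2% there without the 10 vehicle male libraries, and 27.5% in females. A count near those shares is not particular to a cell type. In males all 4 tested platelet markers, all 4 Schwann cell markers, all 4 lymphocyte markers and all 3 neutrophil markers fell, and of 10 cardiomyocyte markers 6 rose and 4 fell. With those 10 vehicle male libraries left out, 1 of 4 platelet, 1 of 4 Schwann cell, 3 of 5 lymphocyte and 3 of 3 neutrophil markers fell, and 3 cardiomyocyte markers rose and 4 fell. The summed platelet markers spanned 13.6 to 316 CPM in vehicle males and 10.1 to 140 CPM in tamoxifen males, with Gp1bb at 0 in every group. The summed Schwann cell markers spanned 18.4 to 99.4 and 17.5 to 31.8 CPM, and the summed cardiomyocyte markers 38210 to 64210 and 54690 to 75020 CPM. In females 6 of 8 fibroblast markers rose (summed level 1958 to 3169 CPM with vehicle, 2000 to 3450 with tamoxifen) and 6 of 10 macrophage markers fell (296 to 494 and 216 to 454 CPM). Other lists in males gave 3 of 4 endocardial, 2 of 5 erythroid, 6 of 10 macrophage and 1 of 8 fibroblast markers lower, 2 of 5 lymphatic and 2 of 5 mesothelial markers higher with 1 lower in each, 2 of 8 mural markers higher and 2 lower, and no tested atrial or adipocyte marker called. Leaving the 10 out, these became 1 of 4 endocardial, 0 of 5 erythroid, 6 of 10 macrophage, 2 of 8 fibroblast and 1 of 8 mural markers lower, and 3 of 5 lymphatic and 4 of 5 mesothelial markers higher, with no atrial or adipocyte marker called. In females, with all libraries, they gave 1 of 4 endocardial, 2 of 8 mural, 2 of 4 atrial and 1 of 4 Schwann cell markers lower, 2 of 5 lymphatic markers higher and 1 lower, 2 of 10 cardiomyocyte markers higher and 1 lower, and no tested erythroid, mesothelial, lymphocyte, neutrophil, platelet or adipocyte marker called. Their part in the endothelial changes was not tested.

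Many of the endothelial genes also followed a 24 h rhythm, fitted as 1 cosine per group, with the amplitude given from the fitted mean to the peak on the log2 scale. In vehicle females 19 of 37 members were rhythmic (edgeR's quasi-likelihood test, Benjamini-Hochberg adjusted), against 34.5% of all genes. In vehicle males 29 were (55.2% of all genes), in tamoxifen females 11 (17.1%) and in tamoxifen males 5 (8.03%). Kdr, Ly6c1 and Ramp2, the receptor partner for adrenomedullin, were rhythmic in all 4 groups, against 3.23% of all genes. In males 4 members were rhythmic in both groups (Ets1, Kdr, Ly6c1 and Ramp2), against 5.36% of all genes. In no group were Cdh5, Pecam1, Plvap, Sox18 or Tek called rhythmic.

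Promoter sequences are shown for 4 rhythmic members. In females Flt1 and Aqp1 peaked close to each other, and Kdr and Cldn5 at other times of the day. Each covers the 250 bases before the start site, from RefSeq (GRCm38.p6), 5′ to 3′ on the strand of the gene. Capitals mark GGAAG, a form of the sequence bound by ETS factors, or CTTCC, the same letters on the opposite strand. Other forms are not marked. The VEGF receptors Kdr (chr5:75978456-75978705, minus strand) and Flt1 (chr5:147726012-147726261, minus strand) lie on the same chromosome, with Aqp1 at chr6:55336049-55336298 (plus strand) and Cldn5 at chr16:18776597-18776846 (plus strand).
Kdr: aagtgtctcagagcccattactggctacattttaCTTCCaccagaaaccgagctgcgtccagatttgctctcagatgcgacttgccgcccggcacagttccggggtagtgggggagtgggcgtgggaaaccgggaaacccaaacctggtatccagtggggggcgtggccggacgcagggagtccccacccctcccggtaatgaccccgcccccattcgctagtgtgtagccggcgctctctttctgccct
Flt1: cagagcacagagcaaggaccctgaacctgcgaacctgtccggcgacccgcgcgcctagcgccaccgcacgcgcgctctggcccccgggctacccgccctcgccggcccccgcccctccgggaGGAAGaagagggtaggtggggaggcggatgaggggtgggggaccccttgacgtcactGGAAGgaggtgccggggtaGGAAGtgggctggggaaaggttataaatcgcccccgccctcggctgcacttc
Aqp1: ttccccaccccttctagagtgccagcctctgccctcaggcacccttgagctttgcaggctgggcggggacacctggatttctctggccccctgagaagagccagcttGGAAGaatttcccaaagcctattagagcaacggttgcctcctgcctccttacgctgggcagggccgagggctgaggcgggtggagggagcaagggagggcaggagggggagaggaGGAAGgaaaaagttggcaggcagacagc
Cldn5: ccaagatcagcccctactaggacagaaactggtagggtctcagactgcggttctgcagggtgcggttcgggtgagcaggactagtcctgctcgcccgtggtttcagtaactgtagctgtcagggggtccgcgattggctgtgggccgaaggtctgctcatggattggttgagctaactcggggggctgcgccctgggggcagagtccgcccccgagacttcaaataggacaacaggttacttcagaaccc

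These letters, on either strand, were found once upstream of Kdr, at 3 places upstream of Flt1, at 2 upstream of Aqp1 and at none upstream of Cldn5 in this window. Of 37 members 18 matched the promoter table, with 24 promoters. GGAAG, read on both strands, was in 18 of these 24 promoters (75%), against 64.1% of all 32851 promoters of the same length. The longer form CAGGAAG, which contains GGAAG, was in 7 of 24 (29.2%) against 10.8%. The clock E-box CACGTG was in 0 of 24 against 6.02% of all, and the D-box TTATGTAA in 0 of 24 against 0.819%. A match describes letters in the window and is no evidence of binding.

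Both VEGF receptors cycled in females, with peaks in different parts of the day. Kdr in vehicle females stood highest at ct 26 h, with 346.2 and 341.5 CPM, and lowest at ct 38 h, with 196.5 and 170.4 CPM, and its fitted peak was at 1.1 ± 0.74 h of the 24 h cycle (amplitude 0.35 ± 0.07, adjusted p = 0.000183). Flt1 in vehicle females stood highest at ct 42 h, with 271.9 and 270.0 CPM, and lowest at ct 30 h, with 174.1 and 143.1 CPM, and peaked at 15.5 ± 0.73 h (amplitude 0.32 ± 0.06). In both genes the pair at the highest time lies above the pair at the lowest time without overlap. With tamoxifen the female peaks were at 0.0 ± 0.89 h for Kdr (amplitude 0.29) and 16.3 ± 0.69 h for Flt1 (amplitude 0.34). In males Kdr peaked at 2.9 ± 0.90 h with vehicle and 0.7 ± 0.60 h with tamoxifen, where its amplitude was 0.43 ± 0.07 (adjusted p = 3.28e-05). Flt1 peaked at 12.4 ± 0.81 h in vehicle males and, with all libraries in the fit, was not called rhythmic in tamoxifen males.

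Aqp1 and Ly6c1 had the largest amplitudes in vehicle females. Aqp1 rose from 304.2 and 366.7 CPM at ct 30 h to 724.7 and 732.3 CPM at ct 42 h, with an amplitude of 0.54 ± 0.08 and a peak at 15.0 ± 0.54 h. Ly6c1 stood at 91.8 and 84.0 CPM at ct 54 h and at 281.9 and 242.3 CPM at ct 42 h, with an amplitude of 0.55 ± 0.07 and a peak at 15.9 ± 0.51 h. Both were also called in tamoxifen females, with Aqp1 at 15.6 ± 0.62 h (amplitude 0.47 ± 0.08) and Ly6c1 at 15.9 ± 0.68 h (0.41 ± 0.07). With all libraries in the fit, Aqp1 was not called rhythmic in tamoxifen males, where Ly6c1 peaked at 16.3 ± 1.02 h with an amplitude of 0.27 ± 0.07.

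Cldn5 peaked later than Aqp1 and Ly6c1 in females. In vehicle females its peak was at 21.5 ± 0.82 h with an amplitude of 0.49 ± 0.11, from 10.7 and 11.2 CPM at ct 34 h to 34.3 and 40.0 CPM at ct 42 h. In tamoxifen females it peaked at 1.9 ± 0.70 h (amplitude 0.58 ± 0.11) and in tamoxifen males at 1.4 ± 0.75 h (0.54 ± 0.11), the largest amplitude among the members called in either tamoxifen group. In vehicle males it was not called rhythmic. Of the SoxF factors, Sox17 peaked at 14.3 ± 0.76 h in vehicle females (amplitude 0.38 ± 0.08) and 13.8 ± 0.67 h in tamoxifen females (0.43 ± 0.08), while Sox7 peaked at 13.9 ± 1.16 h and 13.8 ± 0.77 h. The ETS factor Ets1 peaked near Kdr, at 0.3 ± 1.19 h in vehicle females, 3.8 ± 1.18 h in vehicle males and 0.3 ± 0.81 h in tamoxifen males.

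**Figure D4:**
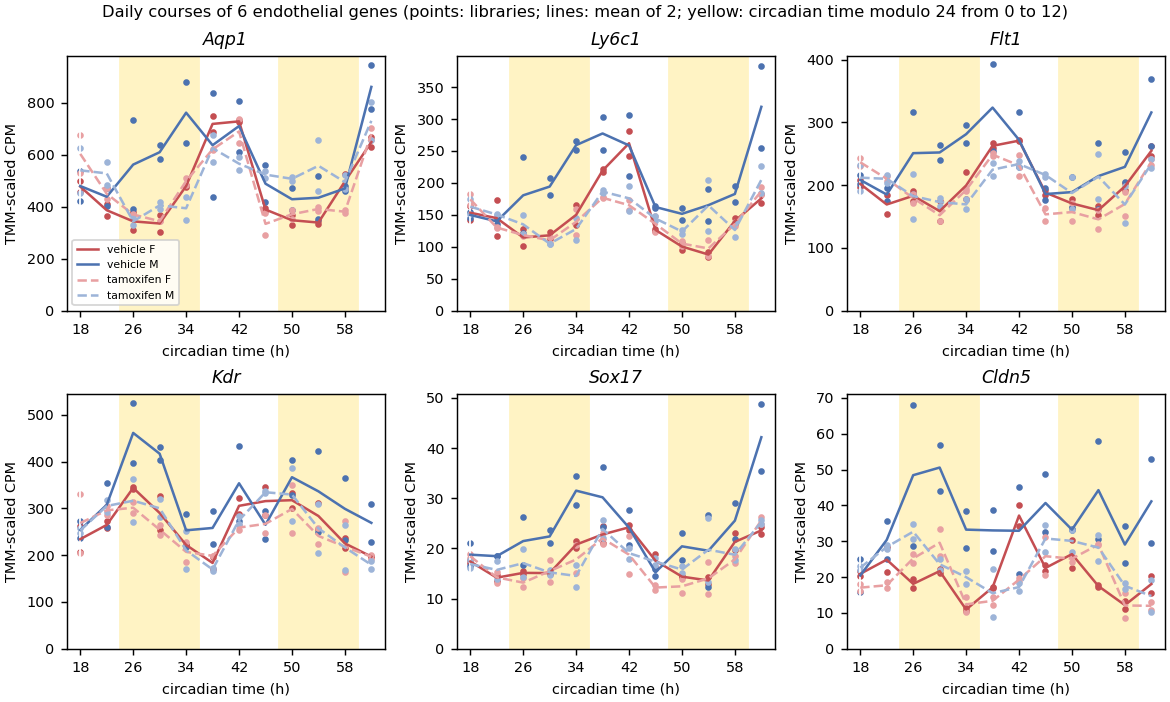
CPM of Aqp1, Ly6c1, Flt1, Kdr, Sox17 and Cldn5 against circadian time (ct 18 to 62 h) in the 4 groups; points are libraries and lines join the means of the 2 libraries at each time, with yellow marking ct 0 to 12 of each cycle. In vehicle females Kdr is high at ct 26 h, where Flt1 is not, and Flt1 is high at ct 42 h.

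In females the rhythmic members gathered in 1 part of the day. Of the 19 in vehicle females 14 (73.7%) peaked between 12 and 18 h of the cycle, a window that held 35.7% of all rhythmic genes of that group. In tamoxifen females 9 of 11 (81.8%) peaked there, against 26.5% of all rhythmic genes. In both groups the members peaking from 0 to 6 h included Kdr, with Ets1 in vehicle females and Cldn5 in tamoxifen females. The count in vehicle females leans on 1 time: both libraries at ct 42 h had nearly all members high (36 and 37 of 37 above the group median, summed 5887 and 5719 CPM against a group median of 3982). Without ct 42 h, 11 members were rhythmic in vehicle females, and Vwf, Eng, Sox7, Fabp4, Cav1, Cavin2, Icam2 and Notch4 were not called. All genes lost calls as well, from 34.5% with every time to 23.8% without ct 42 h.

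In vehicle males 19 of the 29 rhythmic members (65.5%) peaked between 6 and 12 h, a window with 41.2% of all rhythmic genes. The largest amplitudes were those of Gpihbp1 (0.51 ± 0.08, peak 11.3 ± 0.56 h), Egfl7 (0.48 ± 0.08, 9.8 ± 0.63 h), Ramp2 (0.47 ± 0.07, 11.6 ± 0.58 h) and Sox17 (0.45 ± 0.08, 12.2 ± 0.64 h). The libraries high in TEC counts include both libraries at ct 30 and at ct 34 h, which fall at 6 and 10 h of the cycle. Without the 10 libraries, 12 members were rhythmic in vehicle males (18.6% of all genes): Aqp1, Clec14a, Egfl7, Ets1, Flt1, Gpihbp1, Icam2, Kdr, Ly6c1, Ramp2, Rasip1 and Sox17. The amplitudes were then 0.39 ± 0.09 for Gpihbp1 (peak 12 ± 0.93 h), 0.265 ± 0.079 for Egfl7 (10.1 ± 1.07 h), 0.33 ± 0.07 for Ramp2 (13.1 ± 0.98 h) and 0.31 ± 0.09 for Sox17 (13.1 ± 1.25 h). Flt1 peaked at 14.3 ± 1.27 h, Kdr at 1.5 ± 1.02 h and Ets1 at 0.4 ± 1.16 h. In that fit, 24 members were rhythmic in vehicle females (43.4% of all genes), 17 in tamoxifen females (24.5%) and 8 in tamoxifen males (12.8%). Added in vehicle females were Clec14a, Emcn, Pecam1, Robo4 and Tek, and in tamoxifen males Aqp1, Flt1 and Tmem100. Those added in tamoxifen females were Cav1, Egfl7, Eng, Erg, Rasip1 and Robo4.

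**Figure D5:**
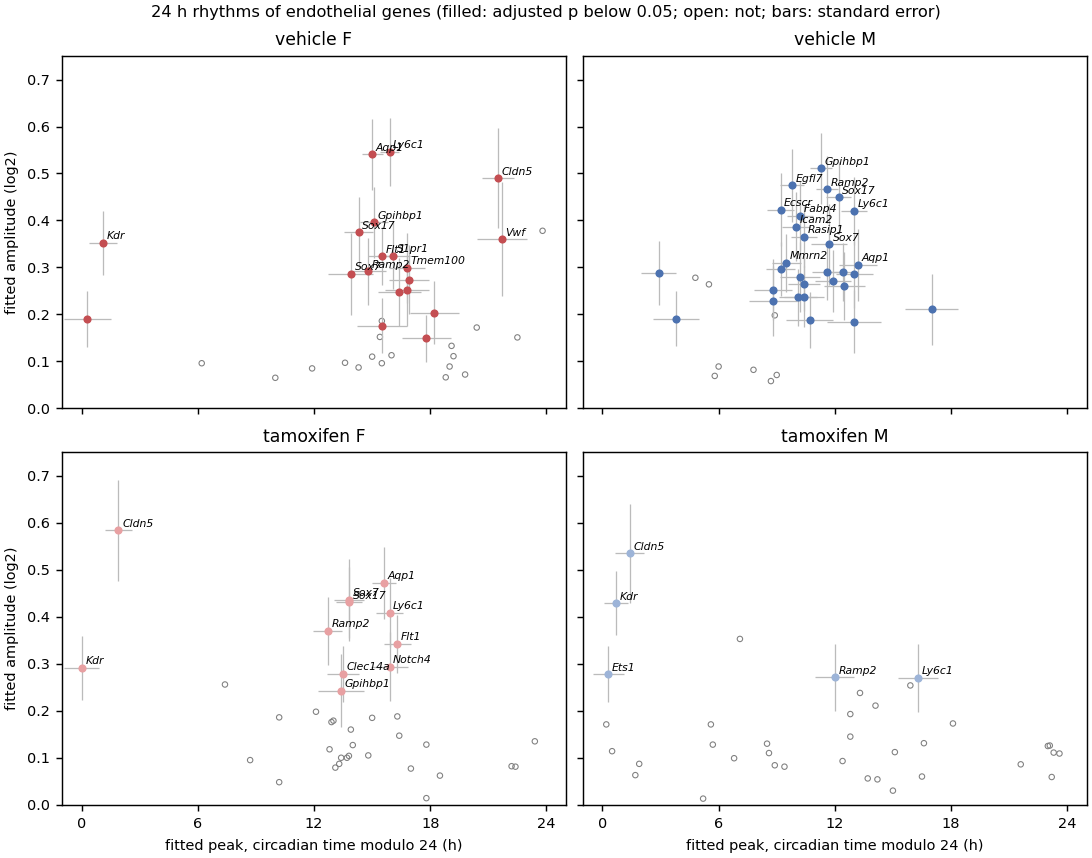
Fitted peak time (h of the 24 h cycle) against amplitude (log2, mean to peak) for the 37 genes in each of the 4 groups; filled points are genes called rhythmic, with bars of 1 SE. In females most filled points lie between 12 and 18 h, while Kdr lies at 1.1 h with vehicle and 0.0 h with tamoxifen.

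A change in rhythm with tamoxifen was not called for any member in females, where 0.237% of all genes were called. At an unadjusted p below 0.05 edgeR had 3 members and DESeq2's adjusted test called 1. Of the 37 members 10 were called rhythmic in both female groups, beside 1771 of all 15629 genes tested (11.3%). In vehicle females 19 members and 5396 genes were called, and in tamoxifen females 11 members and 2675 genes. In males 9 members changed rhythm (20.7% of all genes): Gpihbp1, Fabp4, Icam2, Eng, Tie1, Flt1, Egfl7, Nos3 and Fli1. This count was 0 without the libraries high in Myl7, 0 in the second 24 h alone, 0 when either ct 34 or ct 46 h was left out, 1 when ct 22, ct 30 or ct 50 h was, and 20 when ct 26 h was. Between vehicle females and vehicle males the rhythm differed for 15 members (37.4% of all genes), with Cldn5 (0.64 ± 0.15) and Fabp4 (0.54 ± 0.10) first by the length of the difference. Without the libraries high in Myl7 the rhythm differed for 7 members (25.2% of all genes). It differed for 8 without ct 34 h (25.8%), for 24 without ct 54 h (39.9%), and for 0 in the second 24 h alone (8.28%). Both comparisons rest on the vehicle male libraries. Without the 10 high in TEC counts, 0 members changed rhythm with tamoxifen in males (2.56% of all genes), 1 changed in females (Cldn5, against 1.51%), and 2 differed between the vehicle groups (Fabp4 and Icam2, against 16.9%).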

How the data were processed

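The deposited table holds raw counts, which the authors made per gene from poly-A RNA libraries of mouse ventricle. HISAT2, Picard and HTSeq and the builds GRCm38 and mm10 are named in the submitters' processing notes, without versions. The strand used in counting is not given in the sources used here. Groups and circadian times were taken from the labels, and no column lacked a sample.

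Counts were analysed as deposited with edgeR 4.0.16 in R 4.3.3. Genes with too few counts (filterByExpr by group, minimum count 10) were left out, which kept 15629 of 55376 genes, and library sizes were scaled by the trimmed mean of M-values. A single quasi-likelihood model was fitted over the 96 libraries, with a mean and a 24 h cosine and sine for each of the 4 groups (12 coefficients, 84 residual degrees of freedom). P-values were adjusted by Benjamini-Hochberg over all tested genes in each comparison, with 0.05 as the threshold for a call. The model was tested on simulated data made from the real means and library sizes. Totals of 8944955 to 20596194 counts per library set the precision, and replicate libraries give the errors.

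The 37 members, their roles, the other vascular lists (capillary, receptor, ligand, transcription factor and inflammatory adhesion genes) and the marker lists of other cell types were chosen with earlier results of these data known. Any member could be named. Ranges by group are given for the 4 members with the largest change among those called in a comparison and for the highest members per kilobase, and genes outside the set were named from the lists by size of change. Promoters were read from RefSeq. Alternatives were other scalings, no filter, DESeq2 1.42.0, a length and GC correction, means per time, the first and the second 24 h alone, and fits without single times or without libraries that stand apart.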

Additional observations from a re-analysis of the deposited data

Results flagged for a closer look

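The change with tamoxifen differed between females and males for 23 of the 37 genes by the interaction test (female minus male, log2 scale, edgeR's quasi-likelihood test with Benjamini-Hochberg adjustment), and each of these is listed for a closer look. Among junction genes the differences were 0.609 for Cldn5, 0.309 for Icam2 and 0.256 for Esam. Among transport genes they were 0.603 for Fabp4, 0.495 for Gpihbp1 and 0.236 for Cav1. The receptor kinases Kdr, Tie1 and Tek gave 0.228, 0.204 and 0.184. The lectin Clec14a gave 0.234 and the Notch ligand Dll4 gave 0.256. Among transcription factors the values were 0.417 for Fli1, 0.377 for Sox18, 0.337 for Erg, 0.269 for Ets1 and 0.245 for Sox17. Egfl7 gave 0.537, Emcn (endomucin, a surface sialomucin) 0.494, Ecscr 0.544, Ly6c1 0.340, Rasip1 (a regulator of vessel lumen formation) 0.255 and Nos3 0.206. Tmem100 alone was negative, at -0.241. Over all tested genes 52.3% passed the same test. Without the 10 vehicle male libraries with raised TEC shares, 1 of the 37 genes was positive (Fabp4, 0.36) and 1 negative (Cavin2, -0.15), against 28.6% of all genes.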

How the results depend on the processing

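No paired analysis was possible because the numbers in the titles are shared by no groups. Counts are of the 37 genes, with the reported count first, and the cause was not tested where a count changed. Percentages in brackets are the share of all genes tested in that setting that were called, in either direction. Tamoxifen in females, 5 lower: 8 without libraries high in Myl7, 15 without the vehicle males of raised TEC share (high-TEC), 1 in the first 24 h, 11 with length and GC correction, 9 with time means, and 3 to 11 when each time was left out. Tamoxifen in males, 34 lower (70.0%): 12 without the high-TEC libraries (42.2%), and 31 to 36 over left-out times (65.8% to 71.3%), with 1 to 1 higher. Sex difference with vehicle, 34 lower (68.3%): 12 without the high-TEC libraries (46.7%), 22 in the second 24 h (49.3%), and 31 to 35 over left-out times (64.1% to 68.7%). Its count of 0 higher became 1 with median-of-ratios scaling, no filter, DESeq2, length and GC correction, time means, the second 24 h or without the high-TEC libraries, and was 0 to 1 over left-out times. Sex difference with tamoxifen, 4 lower (7.68%): 0 with library size alone (7.22%) and 11 without the high-TEC libraries (12.1%). The count was 1 in the first 24 h (3.47%), 2 in the second (2.54%) and 7 with time means (9.49%). It was 1 to 7 over left-out times (5.17% to 8.16%). Interaction, 22 higher (52.3%): 13 without the filter (23.3%), 1 without the high-TEC libraries (28.6%), 6 in the second 24 h (31.9%), and 15 to 25 over left-out times (46.6% to 53.6%). Its 1 lower became 0 with library size alone, without the high-Myl7 libraries and in either 24 h, and was 0 to 1 over left-out times.

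Rhythms in vehicle females, 19: 12 with library size alone, 6 and 12 in the first and second 24 h, and 11 to 19 over left-out times. Vehicle males, 29 (55.2%): 12 without the high-TEC libraries (18.6%) and 24 to 30 over left-out times (45.4% to 58.5%). Tamoxifen females, 11 (17.1%): 17 without the high-TEC libraries (24.5%) and 9 to 13 over left-out times (12.7% to 18.1%). Tamoxifen males, 5 (8.03%): 8 without the high-TEC libraries (12.8%), 0 in the second 24 h (1.48%), and 3 to 8 over left-out times (5.18% to 9.02%). Rhythm change in females, 0 (0.237%): 2 without the high-Myl7 libraries (4.21%), 1 without the high-TEC libraries (1.51%), 1 with DESeq2 (0.953%), and 0 to 0 over left-out times (0.0962% to 0.365%). Rhythm change in males, 9 (20.7%): 3 with library size alone (18.8%) and 4 without the filter (7.28%). The count was 0 without the high-Myl7 libraries (11.4%) and 0 without the high-TEC libraries (2.56%). It was 21 in the first 24 h (31.4%), 0 in the second (0.00643%), and 0 to 20 over left-out times (8.65% to 28.2%). Rhythm difference between vehicle sexes, 15 (37.4%): 7 without the high-Myl7 libraries (25.2%) and 2 without the high-TEC libraries (16.9%). The count was 23 in the first 24 h (28.8%), 0 in the second (8.28%), and 8 to 24 over left-out times (25.8% to 44.8%).

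An alternative chosen after seeing the data left out both the high-Myl7 and the high-TEC libraries. It gave 18 lower with tamoxifen in females, 15 in males, 11 lower by sex with vehicle and 12 with tamoxifen, and 1 higher and 3 lower for the interaction. Its rhythm counts were 11 for vehicle males (18.5%), 17 for tamoxifen females (22.9%) and 8 for tamoxifen males (9.50%). The rhythm change was called for 5 in females (13.1%), 0 in males (3.56%) and 1 between vehicle sexes (9.54%).

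Signs turned for single genes. In the second 24 h, Vwf with tamoxifen in males was 0.038. Without the high-TEC libraries, the male tamoxifen values were 0.119 for Cavin2, 0.028 for Cdh5, 0.007 for Dll4 and 0.003 for Notch4. The vehicle sex values were then 0.1 for Tek, 0.069 for Cavin2, 0.027 for Nos3, 0.032 for S1pr1 and 0.004 for Notch4. The interaction values were -0.152 for Cavin2, -0.09 for Nos3, -0.057 for Dll4, -0.059 for Tie1, -0.041 for Tek, -0.015 for Rasip1 and -0.009 for Cav1. With both kinds of library left out, the interaction values were -0.251 for Cdh5, -0.245 for Notch4, -0.198 for Cavin2, -0.091 for Dll4, -0.09 for Tie1, -0.061 for Nos3, -0.052 for Cav1, -0.037 for Tek, -0.012 for Ets1, -0.008 for Kdr, -0.006 for Rasip1 and -0.002 for Esam. The vehicle sex values were 0.1 for Tek, 0.099 for Cavin2, 0.022 for S1pr1, 0.008 for Notch4 and 0.002 for Cdh5, and the male tamoxifen values 0.146 for Cavin2 and 0.04 for Cdh5.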

Other observations

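Other vascular genes of females, none of them among the 37, were rhythmic as well. In vehicle females 11 of 20 vascular transcription factors, 9 of 20 vascular receptors, 9 of 16 vascular ligands and 3 of 12 further capillary genes were called by edgeR's quasi-likelihood test (Benjamini-Hochberg adjusted), against 34.5% of all genes. The flow-responsive factors Klf2 (amplitude 0.58 ± 0.10, peak 16.7 h, adjusted p = 1.1e-05) and Klf4 (0.56 ± 0.10, peak 17.3 h) had the largest amplitudes among the transcription factors, followed by the Notch target Hey1 (0.48 ± 0.10, 14.9 h). Thrombomodulin (Thbd), an anticoagulant receptor, peaked at 17 h with an amplitude of 0.36 ± 0.07. Of the ligands, Angpt1 peaked at 5.9 h (0.53 ± 0.13), Apln at 7.2 h (0.41 ± 0.09) and Pgf at 13.6 h (0.46 ± 0.10), and the apelin receptor Aplnr peaked at 4.4 h (0.43 ± 0.11). In tamoxifen females 8, 6, 7 and 3 members of the same lists, in the order given, were called, against 17.1% of all genes. There Angpt1 peaked at 6.8 h (0.53 ± 0.13) and Pgf at 12.6 h (0.45 ± 0.10), and Meox2, a homeobox factor of cardiac and muscle endothelium, at 13.5 h (0.35 ± 0.08) beside 15.2 h (0.33 ± 0.08) with vehicle.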
